A study of Homo sapiens with 12 samples.

Results

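The aminoacyl-tRNA synthetase genes of this study were 39 rows of a count table of 57353 rows, chosen by gene symbol. They comprised 20 genes of cytosolic enzymes, 16 genes of mitochondrial enzymes (symbols ending in 2) and the 3 genes AIMP1, AIMP2 and EEF1E1, which encode scaffold proteins. All 39 had enough reads to be tested, among 14955 tested rows in all. The table uses older symbols for 18 of them, for example AARS for the gene now called AARS1.

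An aminoacyl-tRNA synthetase joins 1 amino acid to the tRNAs that carry its anticodons, and so supplies every amino acid that a ribosome adds to a protein. Animal cells use separate nuclear genes for the cytosolic and the mitochondrial enzyme of most amino acids, while GARS and KARS each serve both compartments. A group of cytosolic enzymes is held in a large multisynthetase complex by the scaffold proteins AIMP1, AIMP2 and EEF1E1. Several cytosolic synthetase genes are known targets of the transcription factor ATF4, which is made when the kinases of the integrated stress response, among them the amino acid sensor EIF2AK4 (GCN2), phosphorylate the initiation factor eIF2.

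The cells were HepG2, a human hepatocellular carcinoma line labelled wild type. They received 10 µM sorafenib, a multikinase inhibitor used against this cancer, or its vehicle DMSO for 12 h, and all lysates were made in the presence of cycloheximide, which holds ribosomes on mRNA. Each of 6 cultures, usually pooled from several dishes, was split on a sucrose gradient into a light pool and a polysome pool. The light pool held small complexes, free ribosomal subunits and single ribosomes. The design thus gave 4 groups of 3 libraries: vehicle light, vehicle polysome, sorafenib light and sorafenib polysome. The submitters call the assay Ribo-seq, whereas the protocol describes libraries from the RNA of the pools. No library of unfractionated RNA was analysed here, so more mRNA per cell and more of it on ribosomes cannot be told apart.

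Library totals ran from 511065 to 13336689 counts. The sorafenib light group was shallowest, with 2060384, 511065 and 4989312 counts, and its libraries were least alike (r = 0.80 to 0.93 on log2 scaled counts, against 0.95 to 0.99 in the other groups). The least counted synthetase gene had 2, 1 and 7 counts in those 3 libraries and at least 12 in each other library. All 8 hepatocyte markers were detected, with a summed level from 5773 to 31183 CPM, the scaled count defined below, while summed fibroblast, endothelial and leukocyte markers never exceeded 20.6. The hepatocyte sum was higher with sorafenib, at 18778 to 31183 against 5773 to 13619 with vehicle. Its part in the results below was not tested.

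The polysome comparison asked which of these mRNAs became more or less abundant in the polysome pool under sorafenib. Of the 39 genes 30 rose and 1 fell (edgeR quasi-likelihood test, Benjamini-Hochberg adjusted p under 0.05 over all tested genes), where 20.9% of all tested genes rose and 28.8% fell. The 31 changes split by class. The cytosolic enzymes rose in 20 of 20 genes, the mitochondrial enzymes in 10 of 16, and the scaffold genes in 0 of 3. Median log2 fold changes were 1.45, 0.69 and 0.02 in the same order, and the median over all tested genes was -0.26. Levels given below are CPM, a gene's counts per 1e+06 counts of its library after TMM scaling, a correction for library composition. They are shares of each library rather than amounts of RNA.

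**Figure D1:**
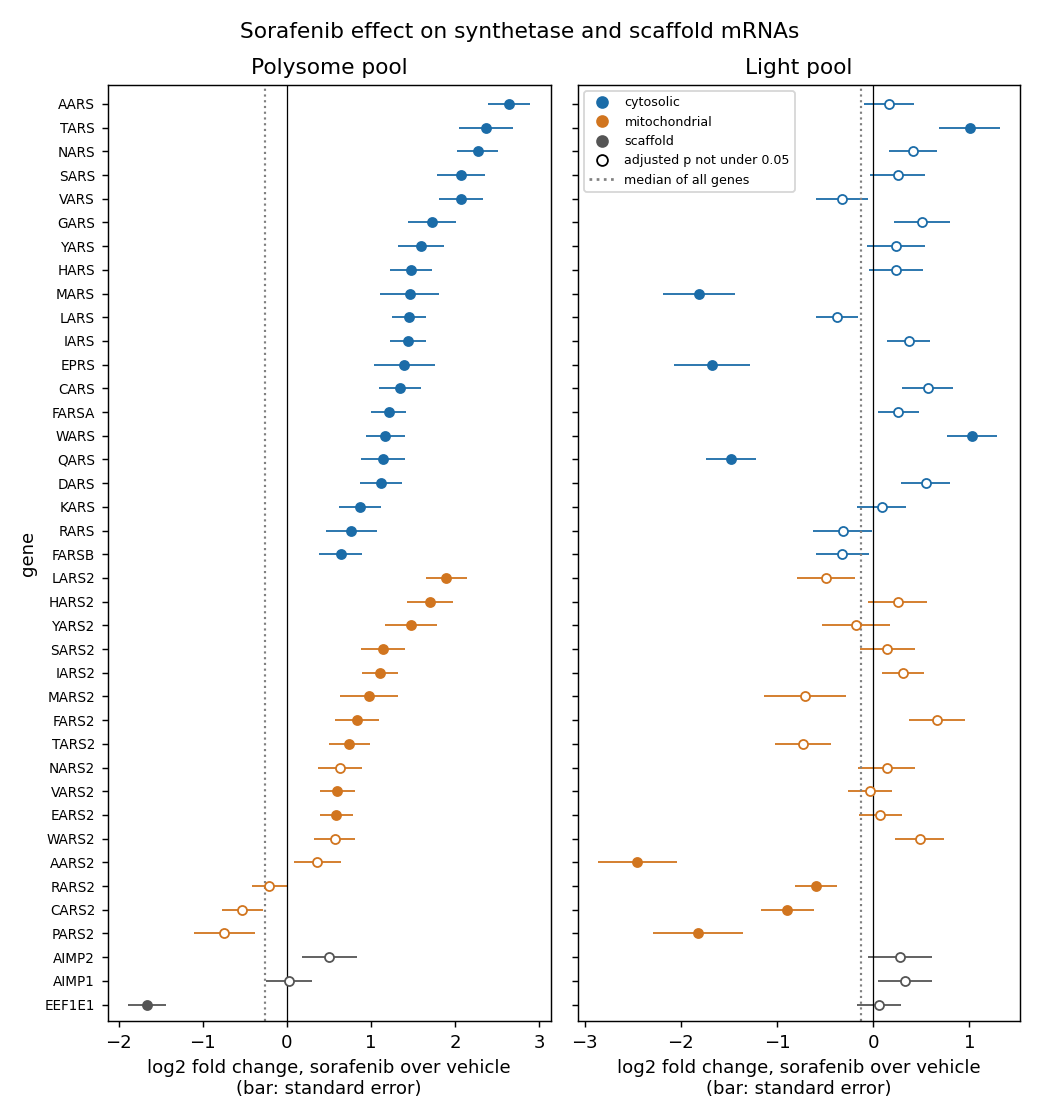
Log2 fold change of sorafenib over vehicle (x axis) for each of the 39 genes (y axis) in the polysome pool (left) and the light pool (right), with bars for the standard error and filled points for adjusted p under 0.05. The 20 cytosolic enzymes lie between 0.64 and 2.64 on polysomes, whereas in the light pool 3 of them lie below -1.4.

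AARS, the alanine enzyme, had the largest rise. Its level was 19.6, 18.8 and 12.7 in the 3 vehicle polysome libraries and 111, 74.5 and 133 in the 3 sorafenib polysome libraries. The groups did not overlap, and the lowest sorafenib library was the second. The log2 fold change was 2.64 ± 0.26 (SE, n = 3 per group, edgeR adjusted p = 7.21e-07), or 6.24-fold. TARS, the threonine enzyme, went from 29.0, 12.2 and 20.4 to 117, 79.6 and 126, again without overlap (2.37 ± 0.32, edgeR adjusted p = 1.35e-05). NARS, the asparagine enzyme, went from 28.6, 19.3 and 27.6 to 124, 114 and 129 (2.27 ± 0.24, edgeR adjusted p = 1.68e-06). Its sorafenib libraries were the most even of these 3 genes. VARS, the valine enzyme, went from 28.5, 38.5 and 38.4 to 157, 129.7 and 154 (2.07 ± 0.26). The leucine enzyme LARS went from 22.9, 22.3 and 21.2 to 64.3, 57.8 and 59.7 (1.45 ± 0.21). Libraries of the 2 treatments stayed well apart for both.

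The smallest rise among cytosolic enzymes was that of FARSB, which encodes the beta subunit of phenylalanine-tRNA synthetase. Its level was 28.3, 20.6 and 28.7 with vehicle and 39.4, 40.5 and 41.9 with sorafenib (0.64 ± 0.25, edgeR adjusted p = 0.0433). FARSA, the alpha subunit of the same enzyme, rose by 1.21 ± 0.21. The calls of FARSB and of RARS, the arginine enzyme (0.77 ± 0.30), were lost when single polysome libraries were left out, with adjusted p up to 0.189 and 0.129. The other 18 cytosolic enzymes kept their call under every alternative in which they could be tested, 25 or 26 for each.

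Membership of the multisynthetase complex and enzyme class did not divide the cytosolic enzymes into risers and others. The 8 enzymes of the complex all rose, with a median of 1.27 and a range from 0.77 (RARS) to 1.46 (MARS). The 12 outside it all rose too, with a median of 1.66 and a range from 0.64 (FARSB) to 2.64 (AARS). The 10 enzymes counted as class I, which charge tRNA with a Rossmann-fold domain, had a median of 1.42, and the 10 class II enzymes one of 1.60. EPRS was counted as class I for its glutamate domain, although its proline domain is of class II. All 5 of the largest rises, in AARS, TARS, NARS, SARS and VARS, were of enzymes outside the complex. These medians are descriptions and were not tested against each other.

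A short sequence was found in 6 of the 16 cytosolic promoters that could be searched. The letters TGATGNAA, the core of the composite C/EBP-ATF site through which ATF4 is known to bind, were searched on both strands of RefSeq promoters (assembly GRCh38.p14, 250 bases before to 50 after the start). The table held 33 of the 39 genes; DARS, LARS, VARS, YARS, AARS2 and VARS2 were not matched. A match was present in 6 of 16 cytosolic promoters (37.5%), 1 of 14 mitochondrial ones (7.14%) and 0 of 3 scaffold ones, against 1003 of 27305 promoters of all genes (3.67%) and 401 of 15843 of protein-coding genes (2.53%). Within the 250 bases before the start alone, it was present in 2 of 16 cytosolic promoters and in 350 of 15843 protein-coding ones, because 4 of the matches touch or follow the start. The 7 stretches of 30 bases are shown so that these letters can be seen side by side, each 5′ to 3′ on the strand of the gene, with the match in capitals.
AARS chr16:70289675-70289704 (- strand): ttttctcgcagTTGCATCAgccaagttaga
TARS chr5:33440956-33440985 (+ strand): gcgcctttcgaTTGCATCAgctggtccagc
NARS chr18:57621804-57621833 (- strand): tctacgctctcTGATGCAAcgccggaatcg
MARS chr12:57488053-57488082 (+ strand): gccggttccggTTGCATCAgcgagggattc
IARS chr9:92293692-92293721 (- strand): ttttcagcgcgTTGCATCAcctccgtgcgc
CARS chr11:3057407-3057436 (- strand): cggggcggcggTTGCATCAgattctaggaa
YARS2 chr12:32756076-32756105 (- strand): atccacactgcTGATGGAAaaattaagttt
All 6 cytosolic matches were the same 8 letters, TTGCATCA or, in NARS, its reverse complement TGATGCAA. These exact letters, looked up after the matches were seen, occurred in 252 promoters of all genes (0.923%), in 106 protein-coding ones (0.669%) and in 0 of 14 mitochondrial synthetase promoters. The match began at base -187 in AARS, -13 in IARS, -4 in MARS and -2 in CARS, counted from the start site, and at base 3 in TARS and base 15 in NARS. The 6 cytosolic genes with a match had a median polysome change of 1.86 (1.35 to 2.64), and the 10 without one in the window had 1.19 (0.64 to 2.07). The ranges overlap, and the difference was not tested. In the light pool the medians were 0.39 and 0.16. DARS, LARS, VARS and YARS, which could not be searched, had polysome changes of 1.12, 1.45, 2.07 and 1.60. A match is a run of letters, and no binding was measured.

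ATF4 itself and the kinase EIF2AK4 were not called higher in either pool. On polysomes ATF4 had a log2 fold change of -0.20 ± 0.28 (edgeR adjusted p = 0.574), and in the light pool it fell by 1.94 ± 0.29 (edgeR adjusted p = 0.000142). Its log2 fold change, not its level, was thus higher on polysomes than in the light pool. The same order held in 37 of the 39 genes and in 7606 of all 14955 tested genes. Any link between ATF4 and the synthetase genes was not tested. Protein of ATF4 was not measured. EIF2AK4 had -0.35 on polysomes and 0.07 in the light pool, and neither passed. ASNS, asparagine synthetase and a textbook ATF4 target, rose in both pools, by 2.31 ± 0.35 on polysomes and 1.52 ± 0.38 in the light pool. Its level on polysomes was 7.16, 5.49 and 4.23 with vehicle and 29.1, 12.7 and 42.5 with sorafenib.

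The second sorafenib polysome library was low for ASNS and for a subset of synthetases. Set against the mean of the other 2 sorafenib polysome libraries, on a log2 scale with 0.5 added, ASNS stood at -1.46 there, SARS at -1.11, GARS at -0.96, YARS at -0.90, MARS at -0.89, AARS at -0.70, CARS at -0.62 and TARS at -0.60. The mitochondrial MARS2 stood at -0.97. In contrast NARS (-0.15), LARS (-0.10), IARS (0.04), QARS (0.09) and EPRS (0.11) were nearly level across the 3 libraries. In all, 8 of 39 synthetase genes were below -0.5 in that library and 1 was above 0.5, where 11.3% and 9.83% of all tested genes were. The median over all tested genes was -0.0058. This pattern was chosen after the values were seen.

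Among the mitochondrial enzymes LARS2, the leucine enzyme, rose most. Its level was 5.08, 5.85 and 8.03 in vehicle polysome libraries and 23.4, 22.9 and 24.6 in sorafenib ones, a log2 fold change of 1.90 ± 0.24 (SE, n = 3 per group, edgeR adjusted p = 8.45e-06). HARS2, the histidine enzyme, went from 12.9, 6.02 and 15.9 to 38.9, 34.3 and 42.6 (1.70 ± 0.28). YARS2, the tyrosine enzyme and the holder of the only mitochondrial motif match, went from 6.93, 4.78 and 8.37 to 17.1, 20.4 and 19.6 (1.48 ± 0.31). In each of these 3 genes every sorafenib library exceeded every vehicle library. SARS2 (1.14), IARS2 (1.11), MARS2 (0.98), FARS2 (0.84), TARS2 (0.74), VARS2 (0.60) and EARS2 (0.59) also rose. The groups of MARS2 overlapped, with vehicle libraries up to 3.55 and sorafenib ones from 3.50. Its call held under 19 of 24 alternatives.

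The remaining 6 mitochondrial enzymes did not pass on polysomes. NARS2 (0.63, edgeR adjusted p = 0.0548) and WARS2 (0.57, 0.0553) were just short of the threshold, and passed it under 18 of 25 and 18 of 26 alternatives. AARS2 had 0.36, RARS2 -0.21 and CARS2 -0.53. PARS2, the proline enzyme, was lowest: its level was 2.54, 2.66 and 2.54 with vehicle and 1.81, 1.32 and 1.48 with sorafenib (-0.74 ± 0.36, edgeR adjusted p = 0.0964). Its groups did not overlap, but all 6 values were under 3 CPM. The mitochondrial calls were the less settled ones: LARS2, HARS2, YARS2, IARS2 and SARS2 kept theirs under every alternative in which they could be tested. Without the first sorafenib polysome library 6 of 16 enzymes rose, where 2448 of 16303 tested genes did.

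Of the 3 scaffold genes 1 changed on polysomes, in the direction opposite to the enzymes. EEF1E1, also known as AIMP3, fell on polysomes. Its level was 201, 199.7 and 171 with vehicle and 44.4, 72.1 and 63.2 with sorafenib, without overlap (-1.67 ± 0.22, edgeR adjusted p = 1.31e-05). In the light pool its groups overlapped, at 103, 91.4 and 93.4 with vehicle and 105, 80.4 and 111 with sorafenib (0.06, edgeR adjusted p = 0.862). AIMP1 went from 124, 116 and 88.9 to 106, 104 and 124 on polysomes (0.02), and AIMP2 from 56.9, 73.4 and 121 to 143, 94.0 and 119.6 (0.51, edgeR adjusted p = 0.201). Both gave overlapping groups. The fall of EEF1E1 held under all 26 alternatives, with log2 fold changes from -1.84 to -1.26.

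Each cytosolic enzyme was next set beside the mitochondrial enzyme for the same amino acid, as a log2 ratio of counts within each library, which needs no scaling between libraries. There were 17 such pairs, with EPRS, which joins both glutamate and proline, set beside EARS2 and PARS2, and both phenylalanine subunits beside FARS2. In 14 of 17 pairs the mean ratio on polysomes was higher with sorafenib, and in 9 the groups did not overlap. The shift was 2.30 for AARS over AARS2, 2.16 for EPRS over PARS2, 1.80 for CARS over CARS2, 1.71 for TARS over TARS2 and 1.63 for NARS over NARS2. The 3 exceptions were LARS over LARS2 (-0.47), HARS over HARS2 (-0.29) and FARSB over FARS2 (-0.20), all with overlapping groups. In the light pool 3 pairs were higher without overlap, 2 were lower and 12 overlapped. How often other pairs of genes separate in this way was not counted for either pool. EPRS and FARS2 each enter 2 pairs, so the 17 pairs are not independent.

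**Figure D2:**
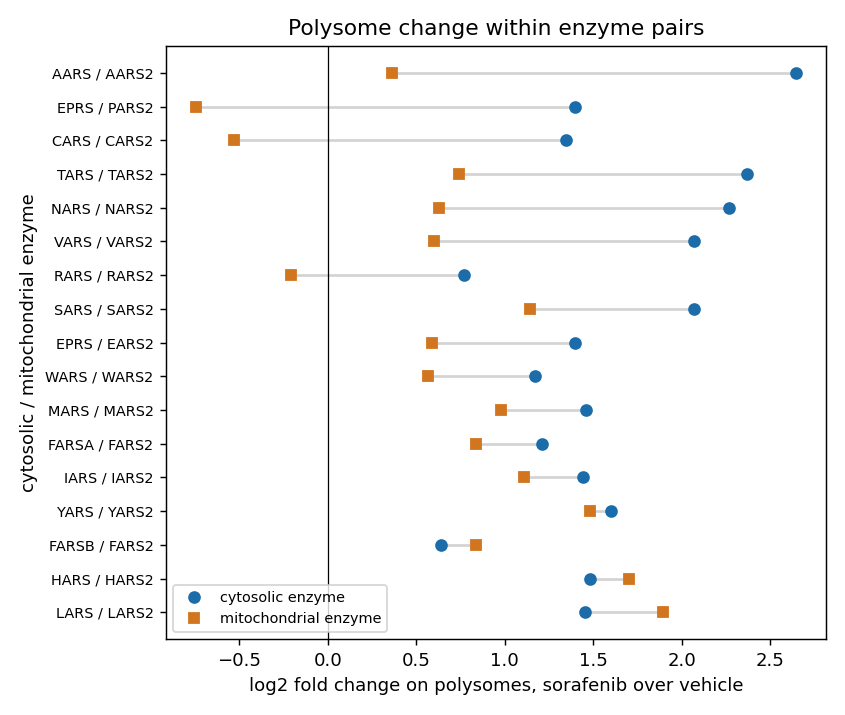
Log2 fold change on polysomes, sorafenib over vehicle (x axis), of the cytosolic enzyme (blue circle) and the mitochondrial enzyme (orange square) of each amino acid (y axis). Pairs are ordered by the signed shift of their mean log2 count ratio on polysomes. AARS and AARS2 are farthest apart at 2.64 and 0.36, and the order is turned for FARSB, HARS and LARS.

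Summed over all members, cytosolic counts per mitochondrial count were 2.02, 2.03 and 1.99 in the vehicle polysome libraries and 3.41, 2.86 and 3.42 in the sorafenib polysome libraries. The means were 2.02 ± 0.0228 and 3.23 ± 0.320 (SD, n = 3 each), and the groups did not overlap. In the light pool the ratio was 3.25, 3.62 and 5.45 with vehicle and 3.28, 2.88 and 3.49 with sorafenib, and there the groups overlapped. Vehicle polysomes thus had the lowest ratios of the 4 groups, while the second sorafenib polysome library (2.86) lay just below the lowest light library (2.88) and the other 2 lay inside the light-pool range. Leaving out GARS and KARS gave 1.70 to 1.80 in vehicle polysome libraries and 2.60 to 3.03 in sorafenib ones. Leaving out the most counted gene of each class, QARS and IARS2, gave 2.12 to 2.50 and 3.86 to 4.65. In the light pool that ratio was 2.51 to 4.38 with vehicle and 3.52 to 3.95 with sorafenib, so that 2 sorafenib polysome libraries (4.56 and 4.65) exceeded every light library. As a share of all counts, the 39 genes held 0.173%, 0.159% and 0.172% in vehicle polysome libraries and 0.372%, 0.324% and 0.392% in sorafenib polysome libraries.

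**Figure D3:**
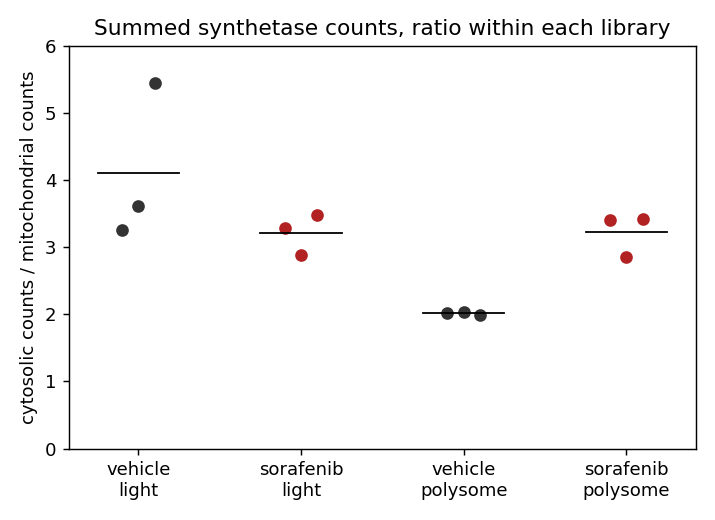
Summed cytosolic counts divided by summed mitochondrial counts in each library (points) with group means (lines), for the 4 groups on the x axis. The 3 vehicle polysome libraries lie together near 2, below all 9 other libraries, which lie between 2.86 and 5.45.

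The light-pool comparison asked the same of mRNAs with no or few ribosomes. Of the 39 genes 2 rose and 7 fell, where 11.7% of all tested genes rose and 17.7% fell. The cytosolic median was 0.24, the mitochondrial one -0.11 and the median of all tested genes -0.12. Both genes that rose were cytosolic enzymes that also rose on polysomes: TARS by 1.00 ± 0.32 (edgeR adjusted p = 0.0244) and WARS, the tryptophan enzyme, by 1.03 ± 0.26 (0.00704). TARS had 28.5, 37.4 and 39.8 with vehicle and 64.6, 37.4 and 98.6 with sorafenib in the light pool, so its second sorafenib library lay within the vehicle range. The TARS call was lost without the third sorafenib light library (0.58, edgeR adjusted p = 0.227), among others.

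The 3 cytosolic enzymes QARS, MARS and EPRS fell in the light pool and rose on polysomes. All of them belong to the multisynthetase complex, of whose 8 enzymes the other 5 were not called in the light pool. Among those 5, DARS (0.55), IARS (0.37) and KARS (0.09) had positive values. Of the 12 cytosolic enzymes outside the complex 2 rose and 0 fell. QARS, the glutamine enzyme, had 539, 562 and 850.3 in vehicle light libraries and 206, 187 and 301 in sorafenib light libraries, a fall of 1.48 ± 0.26 on the log2 scale (edgeR adjusted p = 0.000495). On polysomes it went from 138, 135 and 108 to 305, 293 and 244, a rise of 1.14 ± 0.26 (edgeR adjusted p = 0.00136). Neither pair of groups overlapped, and both calls held under all 26 alternatives.

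MARS, the methionine enzyme, had 68.7, 94.7 and 205 in the vehicle light pool and 22.3, 31.8 and 47.2 in the sorafenib light pool (-1.81 ± 0.38, edgeR adjusted p = 0.00162). On polysomes it went from 16.6, 22.3 and 20.8 to 64.9, 34.6 and 64.2 (1.46 ± 0.35, edgeR adjusted p = 0.0023). Its groups did not overlap in either pool. EPRS had 36.6, 66.7 and 160.4 in the vehicle light pool and 24.7, 16.8 and 34.8 in the sorafenib light pool (-1.67 ± 0.40, edgeR adjusted p = 0.00399). On polysomes it went from 19.3, 25.2 and 19.3 to 53.9, 58.8 and 54.7 (1.40 ± 0.36, edgeR adjusted p = 0.00391), again without overlap in either pool. For both genes the third vehicle light library was the highest of its group by a wide margin. Relative to the mean of the other 2 vehicle light libraries it stood at 1.63 for EPRS, 1.32 for MARS, 1.17 for RARS and 0.63 for QARS on the log2 scale. Without that library the EPRS fall was 0.87 (edgeR adjusted p = 0.0535), and without both shallow sorafenib light libraries the falls of EPRS (1.17, edgeR adjusted p = 0.15) and MARS (1.21, edgeR adjusted p = 0.104) were not called. MARS overlaps DDIT3 and ARHGAP9 in the RefSeq annotation, and the sources do not state whether strand was used in counting. DDIT3, a stress-induced transcription factor looked up for this overlap, had 2.23 on polysomes and 0.29 in the light pool.

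**Figure D4:**
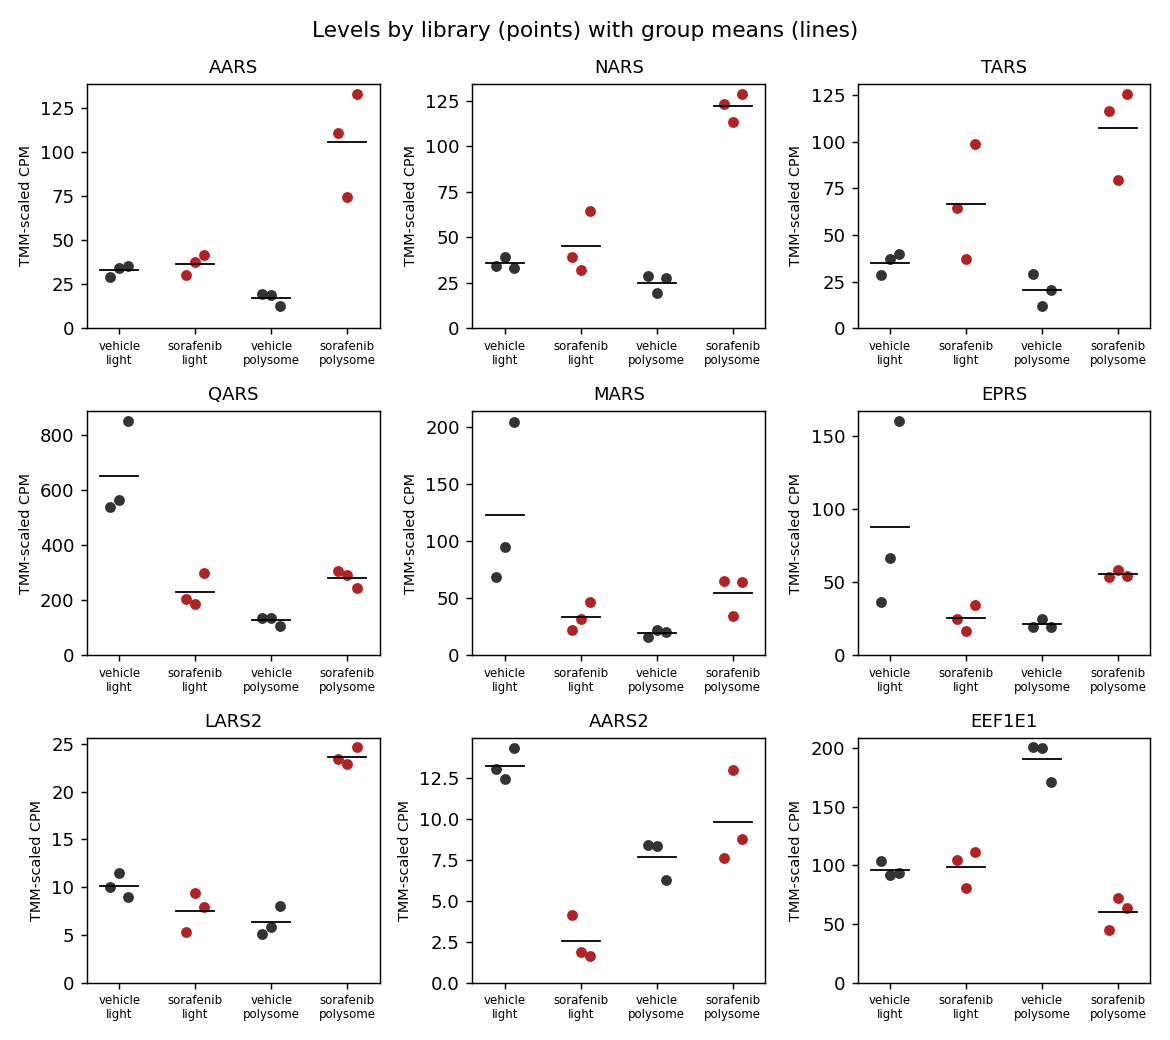
TMM-scaled CPM (y axis, separate scale for each gene) of 9 genes in each library (points; black for vehicle, red for sorafenib) with group means (lines). QARS, MARS and EPRS are lower with sorafenib in the light pool and higher with sorafenib on polysomes, while EEF1E1 goes from the highest group, 171 to 201 on vehicle polysomes, to the lowest on sorafenib polysomes.

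The 4 mitochondrial enzymes that fell in the light pool were AARS2, PARS2, CARS2 and RARS2, and none of them passed on polysomes. AARS2, the alanine enzyme, picked here after its values were seen, had 13.0, 12.4 and 14.3 with vehicle and 4.11, 1.87 and 1.63 with sorafenib (-2.45 ± 0.41, edgeR adjusted p = 0.000336). The sorafenib values rest on 7, 1 and 7 counts. PARS2 had 7.32, 4.63 and 7.26 with vehicle and 1.17, 1.87 and 2.10 with sorafenib (-1.82 ± 0.47, edgeR adjusted p = 0.00742), the latter from 2, 1 and 9 counts. Neither pair of groups overlapped. CARS2 (-0.89) and RARS2 (-0.60, edgeR adjusted p = 0.0456) were nearer the threshold. The AARS2 fall held under all 24 alternatives in which it could be tested, that of PARS2 under 22 of 24, that of CARS2 under 18 of 25 and that of RARS2 under 8 of 26. RARS2 lost its call under all 5 other scalings (edgeR adjusted p from 0.0748 to 0.693) and when any of the 3 sorafenib light libraries was left out (0.0728 to 0.164), among others.

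The interaction tests whether the sorafenib effect differed between the pools. It was higher on polysomes for 20 genes and lower for 1, where 12.8% and 10.7% of all tested genes were called. The 20 were 14 cytosolic and 6 mitochondrial enzymes, and the 1 was EEF1E1 (-1.73 ± 0.32, edgeR adjusted p = 0.000765). By adjusted p the leading genes were QARS (2.62 ± 0.37, edgeR adjusted p = 0.000101), AARS (2.48), VARS (2.39), MARS (3.27), LARS2 (2.38) and LARS (1.83). MARS and QARS were called in both pools, in opposite directions, whereas AARS was called on polysomes alone. AARS had 29.1, 34.1 and 35.5 in the vehicle light pool and 30.5, 37.4 and 41.8 in the sorafenib light pool. The other 3 leading genes also did not pass in the light pool, and their groups overlapped there. VARS had 49.2, 68.2 and 97.7 with vehicle and 54.0, 39.3 and 71.5 with sorafenib. LARS had 36.8, 45.2 and 50.6 with vehicle and 30.5, 29.9 and 39 with sorafenib. LARS2 had 10.0, 11.5 and 8.92 with vehicle and 5.28, 9.35 and 7.94 with sorafenib. WARS, called higher in both pools, had the smallest cytosolic difference (0.14, edgeR adjusted p = 0.806). With the culture as a block, since both pools of a culture come from 1 lysate, FARSB joined the calls (1.08, edgeR adjusted p = 0.032).

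The same values can be read within each treatment, as polysome over light pool. These comparisons share their libraries with those above. In vehicle cells 1 gene was higher on polysomes and 18 were lower, where 18.3% and 17.8% of all tested genes were called. The 18 were 12 cytosolic and 6 mitochondrial enzymes, and 7 of the 8 enzymes of the multisynthetase complex were among them. MARS (-2.63 ± 0.37), QARS (-2.36 ± 0.27) and EPRS (-2.05 ± 0.37) were the most light-pool-weighted, and EEF1E1 (0.99 ± 0.22, edgeR adjusted p = 0.00176) was the gene higher on polysomes. In sorafenib cells 11 genes were higher on polysomes and 3 were lower, where 13.4% and 12.4% of all tested genes were called. AARS2 (2.02 ± 0.41), LARS2 (1.70 ± 0.29) and AARS (1.53 ± 0.26) were highest, and the 3 lower genes were RARS2 (-0.82), AIMP1 (-0.81) and EEF1E1 (-0.74).

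Both fraction comparisons depend on how the pools are scaled to each other. Scaled by library totals alone, the median of all tested genes moved from -0.06 to 0.82 in vehicle cells and from -0.0037 to 0.60 in sorafenib cells. The vehicle split of 1 higher and 18 lower genes became 8 and 3, and the sorafenib split of 11 and 3 became 27 and 0. Of all 14955 tested genes, 7314 were then called higher and 876 lower in vehicle cells. In sorafenib cells 5587 were called higher and 914 lower. The falls of MARS, QARS and EPRS in vehicle cells held under every alternative in which they could be tested, as did the rises of AARS, NARS, VARS, YARS and AARS2 in sorafenib cells. For AARS2 these did not include a filter of at least 10 counts in every library, or libraries thinned to the shallowest depth. With the culture as a block, FARSB (edgeR adjusted p = 0.0386), GARS (0.0282), TARS (0.0157) and HARS2 (0.0232) were also lower on polysomes in vehicle cells, and CARS was not (0.0518). In sorafenib cells the block added EPRS (edgeR adjusted p = 0.0159), TARS (0.0484), HARS2 (0.0177), VARS2 (0.0419) and YARS2 (0.0394) to the genes higher on polysomes and removed EARS2 (0.0751).

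Genes that act before or after tRNA charging moved in both directions on polysomes, where 20.9% of all tested genes rose and 28.8% fell. Of 17 partners and quality-control factors of charging, 4 rose and 5 fell (median 0.08). GATB, a subunit of the mitochondrial glutamyl-tRNA amidotransferase, rose by 1.09, while MTFMT, which formylates the mitochondrial initiator tRNA, fell by 1.17 and SEPHS2, which makes selenophosphate, by 1.14. Of 29 tRNA maturation and export genes 7 rose and 12 fell (median -0.38). The tRNA ligase RTCB rose by 2.21 and the exportin XPO5 by 2.13, while POP5, a subunit of RNase P, fell by 1.94 and ZBTB8OS (archease), a partner of RTCB, by 1.90. 

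Of 62 tRNA modification genes 18 rose and 21 fell (median -0.14). NAT10, an RNA acetyltransferase, rose by 1.97 and CDK5RAP1, a mitochondrial tRNA methylthiotransferase, by 1.89, while ADAT3, a subunit of the wobble adenosine deaminase, fell by 2.89 and TRMT2B, a mitochondrial methyltransferase, by 1.89. Of 23 genes of RNA polymerase III and its factors 6 rose and 7 fell (median -0.06), with the TFIIIC subunits GTF3C3 (1.52) and GTF3C1 (1.39) higher and the polymerase subunit POLR3K (-1.32) lower. Of 6 elongation factor genes 2 rose, EEF1G (1.39) and EEF1A1 (1.07), which delivers charged tRNA to the ribosome, and 0 fell. Both fell in the light pool, by 1.60 and 1.11. Against the 20 of 20 cytosolic synthetases that rose, these lists give 4 of 17, 7 of 29, 18 of 62, 6 of 23 and 2 of 6, and all tested genes 20.9%. For falls they give 5 of 17, 12 of 29, 21 of 62, 7 of 23 and 0 of 6, and all tested genes 28.8%. The lists were not tested against each other.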

How the data were processed

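RNA of 12 gradient pools was sequenced, and the authors deposited raw counts for each gene and library. Per the submitters' processing notes the reads were placed on GRCh38.p12. The aligner, counter, annotation and any use of strand were not given in the sources used here. Gene names were looked up in RefSeq genes of GRCh38.p14, where 37277 of 57353 rows matched (21 of the 39 members by symbol and 18 by an older symbol). The 7 members that overlap a protein-coding gene in that annotation (MARS, YARS, CARS2, EARS2, FARS2, AIMP1 and AIMP2) are uncertain to that extent. So are members that overlap antisense or other non-coding genes, among them EEF1E1, which overlaps EEF1E1-BLOC1S5 and SCARNA27.

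The test was edgeR's (4.0.16, under R 4.3.3). Its function filterByExpr kept 14955 genes, and the 42398 rows it dropped held at most 4.54% of the counts of a library. TMM factors ran from 0.637 to 1.41. The quasi-likelihood test was fitted to all 12 libraries with 1 mean per group and no block, and Benjamini-Hochberg adjusted p under 0.05 was a call. Standard errors were taken as the size of the log2 fold change divided by the root of its F statistic. Totals of 511065 to 13336689 counts limit the precision, most of all for low-count genes in the sorafenib light pool. If the triplicates were not separate cultures, the p-values reflect technical spread between libraries alone.

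The members, the other gene lists and the rules for naming were chosen with earlier results of these data known. All members could be named; values per library were given for the 3 largest and the lowest polysome changes of each class, the 6 leading interaction genes and the genes called in opposite directions in both pools. From each other list the 2 genes with the smallest p in each direction were named, except that some genes the rule picked are not reported here. Pools of the same number and treatment were taken to come from 1 culture, because their titles share a number. The titles do not name a culture. Departures of the paired pools from their group means had correlations of 0.14, -0.07 and 0.33 in vehicle and 0.05, 0.04 and 0.04 in sorafenib cultures. The culture was therefore fitted as a block in an alternative. Other alternatives covered scaling, filters, limma 3.58.1, DESeq2 1.42.0, depth and leaving out libraries. Figures were drawn with matplotlib 3.10.9.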

Additional observations from a re-analysis of the deposited data

Results flagged for a closer look

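The sorafenib effect differed between the polysome and the light pool in 21 genes by the interaction term of the edgeR quasi-likelihood fit (adjusted p under 0.05, 3 libraries per group). Among cytosolic enzymes the difference, polysome minus light on the log2 scale, was 3.27 for MARS, 3.07 for EPRS, 2.62 for QARS, 2.48 for AARS and 2.39 for VARS. It was 1.85 for NARS, 1.83 for LARS, 1.82 for SARS, 1.36 for TARS, 1.36 for YARS, 1.24 for HARS, 1.22 for GARS, 1.07 for IARS and 0.95 for FARSA. Among mitochondrial enzymes it was 2.81 for AARS2, 2.38 for LARS2, 1.69 for MARS2, 1.66 for YARS2, 1.47 for TARS2 and 1.45 for HARS2. EEF1E1 had the opposite sign, -1.73. The differences of AARS, EPRS, LARS, MARS, NARS, QARS, SARS, VARS and AARS2 stayed called under every alternative in which they could be tested.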

How the results depend on the processing

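On polysomes the count of 30 genes that rose ran from 24 to 33 when single libraries were left out, that of cytosolic enzymes (20) from 18 to 20, that of mitochondrial enzymes (10) from 6 to 12, and that of genes that fell (1) from 1 to 2. Over all tested genes the count of rises, 3130 in the main fit, then ran from 2442 to 4232. That of falls, 4306 in the main fit, ran from 2577 to 4059. Mitochondrial enzymes that rose were 4 with at least 10 counts in every library, where 26 genes were tested, and 3 with every library thinned to the depth of the shallowest, where 34 were tested. Over all tested genes 1688 of 5521 and 1777 of 7873 rose under these settings. In the light pool the 2 rises became 12 with library totals, 0 with no filter, 0 when thinned and 6 without both shallow sorafenib light libraries (1 to 6 leaving out single libraries). The 7 falls became 4 with the filter of 10 counts, 3 when thinned and 2 without both shallow libraries (4 to 7). Over all tested genes the falls were 2648 of 14955 in the main fit. Under the same settings they were 1125 of 5521, 983 of 7873 and 1333 of 15905. The 20 higher interactions became 13 with library totals, 13 when thinned and 13 without both shallow libraries (14 to 26), and the 1 lower became 0 with no filter (1 to 1). Over all tested genes the higher ones, 1921 of 14955 in the main fit, became 1210 of 14955, 792 of 7873 and 1554 of 15905. The lower ones, 1607 in the main fit, became 663 of 45832 with no filter. In vehicle cells the 1 gene higher on polysomes became 8 with library totals, 5 with TMM within each fraction and 0 when thinned (1 to 1). Over all tested genes 2742 of 14955 became 7314 of 14955, 5932 of 14955 and 1058 of 7873. The 18 lower ones became 3, 5 and 11 under the same settings and 11 with no filter (12 to 21). Lower genes among all tested, 2659 in the main fit, became 876, 1129, 1200 of 7873 and 1913 of 45832. In sorafenib cells the 11 higher genes became 27 with library totals, 32 with TMM within each fraction, 22 with no filter, 7 with the filter of 10 counts, 4 when thinned and 6 without both shallow libraries (9 to 22). Over all tested genes 2002 of 14955 became 5587 with library totals and 7041 with TMM within each fraction. Under the other 4 settings, in the same order, they were 4719 of 45832, 958 of 5521, 623 of 7873 and 1241 of 15905. The 3 lower ones became 0 with library totals, TMM within each fraction, no filter or without both shallow libraries (0 to 3). Lower genes among all tested, 1855 in the main fit, became 914, 740, 2483 of 45832 and 920 of 15905. The causes were not tested.

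With the replicate number as a block, 31 genes rose and 1 fell on polysomes (NARS2 was added), and 2 rose and 6 fell in the light pool (RARS2 was lost). Of all 14955 tested genes 3134 then rose and 4172 fell on polysomes, and 1693 rose and 2623 fell in the light pool. Across treatments same-numbered libraries share only a number (r = -0.20 to 0.02). The culture as a replicate block changed 12 calls in the interaction and fraction comparisons, all given beside those results, and no others. Depth limits the light pool most, where single genes rest on as few as 1 count.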
